A study of Rattus norvegicus with 4 samples.

Results

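The genes described here are 40 rat genes that fold, modify, check and export secreted proteins in the endoplasmic reticulum (ER). They were taken by gene symbol, and all 40 were read among the 23608 gene rows of the count table. RNA was measured by sequencing of poly(A)-selected total RNA from primary wild-type rat microvessels. These are small vessels isolated from subcutaneous soft connective tissue, labelled as vascular cells, and the cultures differed in the stiffness of their extracellular matrix and in A83-01, an inhibitor of the type I receptors for TGF-β, activin and nodal. The 4 groups were stiff with A83-01, stiff without it, soft with A83-01 and soft without it. Each group was 1 library, so the comparisons of 2 libraries have no replicate error and no test. The labels give neither animal age nor pooling, dose of A83-01 or time on the matrix. Matrix stiffness cannot be told apart from any separate preparation of the stiff and soft cultures.

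The 4 libraries held between 32271844 and 33416200 counts assigned to genes. All 40 genes passed the minimum of 1 CPM (reads of a gene scaled to library size) in at least 1 library that 13634 genes passed, and their counts lay between 319 and 173678, so counting error is small for each of them. Levels are given as CPM scaled by trimmed means (TMM), or as the deposited FPKM, which also divides by transcript length, where 2 genes are set side by side. The 10 most abundant genes took 11.6% of counts on stiff with A83-01, 21.8% on stiff, 11.7% on soft with A83-01 and 14.0% on soft, and scaling to the plain total instead of TMM shifts every gene up by 0.284 log2 in the A83-01 comparison on stiff and down by 0.234 log2 in stiff against soft. Of 11 endothelial markers read, all passed the minimum, with summed levels of 2595 CPM on stiff with A83-01, 1515 on stiff, 1952 on soft with A83-01 and 1920 on soft. The 9 pericyte and mural markers, which also all passed, summed to 6928, 7595, 2077 and 2804 CPM in the same order. With A83-01 on stiff, 5 of the 9 lay above 0 and 4 below, with 4 past 1.5-fold higher and 1 lower. Their lower sum there does not describe most of the 9. The 6 fibroblast markers read, Col1a1 among them, summed to 25330, 71994, 41725 and 53136 CPM in the same order of libraries. The 7 leukocyte markers read summed to between 68.0 and 144 CPM. The 6 adipocyte markers read summed to 41.0, 16.5, 47.9 and 27.6 CPM in that order, and the 5 of them that passed the minimum were all above 0 with A83-01 on stiff, Adipoq and Plin1 being at 0 counts on stiff without it. The 5 skeletal muscle markers read, of which 2 passed the minimum, summed to 565, 447, 99.3 and 98.9 CPM, nearly all of it Des, while Ckm was at 0 counts on both soft libraries. This sum therefore follows Des and says little of skeletal muscle content. Of the 6 plasma cell and B cell markers read, 0 passed the minimum, Cd79b and Pou2af1 were at 0 counts, and the sum was at most 0.269 CPM. In bulk RNA, fewer cells of a type and less RNA per cell cannot be told apart. The part of cell composition in the results below was not tested.

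Secreted and membrane proteins enter the ER through the Sec61 channel and are folded there by chaperones such as BiP (Hspa5), GRP94 (Hsp90b1) and the lectins calreticulin and calnexin, while protein disulfide isomerases form their disulfide bonds. When unfolded protein accumulates, the sensors Ern1 (IRE1), Eif2ak3 (PERK) and Atf6 start the unfolded protein response, which raises chaperones, ER-associated degradation and export. Cells that make matrix, such as fibroblasts and myofibroblasts, load this pathway with procollagen, which needs its own chaperone, HSP47 (Serpinh1), and its own prolyl isomerases.

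The promoters are shown first because they were searched for the letters through which this response is known to act. The ER stress response element (ERSE), which reads CCAAT, 9 bases of any kind and CCACG, and ERSE-II, which reads ATTGG, 1 base of any kind and CCACG, are bound by ATF6 or XBP1 together with NF-Y. RefSeq windows of 300 bases, from 250 before to 50 after the start, on rat build GRCr8, were matched by symbol for 31 of the 40 genes. ERSE was found on either strand in 7 of these 31 windows (22.6%), against 22 of all 33469 windows (0.0657%). ERSE-II was found in 3 of 31 (9.68%), against 17 of 33469 (0.0508%). Together they were in 10 of 31 windows (32.3%), against 39 of all windows (0.117%). Since the genes were picked in part as known targets of this response, these shares describe the choice and are not independent of it. The UPRE core TGACGTGG was in 3 of 31 windows (9.68%) against 0.595% of all windows, namely those of Hyou1, Sec23a and Kdelr3, and the amino acid response letters TGATGNAA were in 1 of 31 (3.23%), that of Herpud1, against 3.98% of all windows. Both strands were read for each motif, and the UPRE core of Hyou1 overlaps one of its ERSE-II matches.

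The matches are set out in the orientation of the motif, with the fixed letters in capitals, so that the spacer between them can be compared.
Hspa5 ERSE: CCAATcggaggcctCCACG
Hsp90b1 ERSE: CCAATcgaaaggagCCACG
Hsp90b1 ERSE: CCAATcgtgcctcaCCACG
Calr ERSE: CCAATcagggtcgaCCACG
Canx ERSE: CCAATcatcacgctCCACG
Hyou1 ERSE-II: ATTGGcCCACG
Hyou1 ERSE-II: ATTGGgCCACG
Dnajb11 ERSE-II: ATTGGcCCACG
Dnajc3 ERSE: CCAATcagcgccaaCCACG
Creld2 ERSE: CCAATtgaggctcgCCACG
Xbp1 ERSE: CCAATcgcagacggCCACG
Herpud1 ERSE-II: ATTGGgCCACG
Of the ERSE genes, Hsp90b1 held 2 matches, and Hyou1 held 2 ERSE-II matches besides its UPRE core. The table gives 2 windows for Hyou1, and these matches are in the first, which was the one used; the second held none of the 4 motifs.

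The whole windows follow for 5 genes on which the results turn, with the matched motifs in capitals and the strand of the gene given. The first is that of Hspa5, the main Hsp70 chaperone of the ER, at chr3:38452766-38453065 on the plus strand, with its ERSE 43 bases before the start. Hsp90b1 lies at chr7:23012244-23012543 on the minus strand. Herpud1 lies at chr19:10614658-10614957 on the minus strand, with ERSE-II and the amino acid response letters in capitals.
Hspa5: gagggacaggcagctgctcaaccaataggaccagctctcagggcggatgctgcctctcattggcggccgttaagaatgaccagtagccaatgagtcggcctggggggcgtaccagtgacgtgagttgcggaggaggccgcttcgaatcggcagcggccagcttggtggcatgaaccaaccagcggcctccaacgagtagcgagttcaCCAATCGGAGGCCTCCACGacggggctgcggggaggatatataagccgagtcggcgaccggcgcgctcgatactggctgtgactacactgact
Hsp90b1: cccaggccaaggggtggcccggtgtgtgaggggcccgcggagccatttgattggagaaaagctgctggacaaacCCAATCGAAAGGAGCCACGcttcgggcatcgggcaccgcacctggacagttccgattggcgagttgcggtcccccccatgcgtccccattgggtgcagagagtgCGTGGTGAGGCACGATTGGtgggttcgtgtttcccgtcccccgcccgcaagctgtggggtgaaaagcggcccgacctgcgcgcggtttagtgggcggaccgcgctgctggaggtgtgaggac
Herpud1: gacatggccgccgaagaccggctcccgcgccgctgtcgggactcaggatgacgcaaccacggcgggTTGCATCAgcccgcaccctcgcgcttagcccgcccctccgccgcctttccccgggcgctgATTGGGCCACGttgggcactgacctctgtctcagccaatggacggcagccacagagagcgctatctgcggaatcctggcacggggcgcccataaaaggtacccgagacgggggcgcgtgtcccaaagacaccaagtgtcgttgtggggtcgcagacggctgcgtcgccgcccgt
The windows of Creb3l1, at chr3:98449055-98449354 on the minus strand, and Serpinh1, at chr1:163062927-163063226 on the minus strand, held none of the 4 motifs and so have no capitals. This says only that these letters are not in these windows.
Creb3l1: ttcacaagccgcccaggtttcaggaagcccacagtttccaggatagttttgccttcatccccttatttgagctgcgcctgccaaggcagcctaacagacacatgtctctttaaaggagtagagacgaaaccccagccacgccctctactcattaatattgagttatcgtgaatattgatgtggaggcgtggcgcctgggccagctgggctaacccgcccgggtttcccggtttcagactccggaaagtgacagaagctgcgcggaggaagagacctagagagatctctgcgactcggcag
Serpinh1: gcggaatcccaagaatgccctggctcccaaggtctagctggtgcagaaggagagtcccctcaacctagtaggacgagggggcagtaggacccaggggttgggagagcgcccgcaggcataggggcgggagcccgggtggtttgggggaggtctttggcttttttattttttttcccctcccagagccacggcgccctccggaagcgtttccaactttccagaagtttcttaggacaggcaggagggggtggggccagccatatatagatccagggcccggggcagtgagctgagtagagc

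Per transcript length, levels differed widely among the 40 genes. Serpinh1 was the most abundant of the 40, at 1416 FPKM on stiff with A83-01, 2050 on stiff, 941 on soft with A83-01 and 1355 on soft. P4hb, a disulfide isomerase that is also the beta subunit of prolyl 4-hydroxylase, had 490, 471, 902 and 737 FPKM in the same order. Calr (calreticulin) had 531, 481, 704 and 575 FPKM. The sensor Ern1 was the lowest, at 2.26 FPKM on stiff with A83-01, 2.63 on stiff, 3.40 on soft with A83-01 and 3.64 on soft. The other sensors were also low, with Eif2ak3 between 4.45 and 5.14 FPKM and Atf6 between 9.28 and 10.8 FPKM, whereas Xbp1, the transcription factor whose RNA Ern1 splices, lay between 88.6 and 99.6 FPKM. These counts are per gene and do not tell spliced from unspliced Xbp1.

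As a whole the 40 genes took 1.38% of all counts on stiff with A83-01, 1.61% on stiff, 1.48% on soft with A83-01 and 1.51% on soft. Without Serpinh1 the shares were 1.02%, 1.08%, 1.24% and 1.17%, the stiff libraries being the lower ones. In TMM CPM the order differs: the other 39 genes summed to 9556 CPM on stiff with A83-01, 12369 on stiff, 11910 on soft with A83-01 and 11305 on soft, the stiff library without A83-01 being the highest. The range across libraries was under 2-fold for 35 of the 40 genes. The stiff library without A83-01 was the highest of the 4 for 29 genes (72.5%), against 29.0% of all genes compared, and for 20 of the 40 under plain total-count scaling. Soft with A83-01 was highest for 8 genes, soft for 2 and stiff with A83-01 for 1. Lowest was stiff with A83-01 for 17 genes, stiff for 1, soft with A83-01 for 14 and soft for 8, where the shares of all genes compared were 23.9%, 31.5%, 24.7% and 20.0%. Under total-count scaling these counts were 10, 9, 14 and 7 genes.

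**Figure D1:**
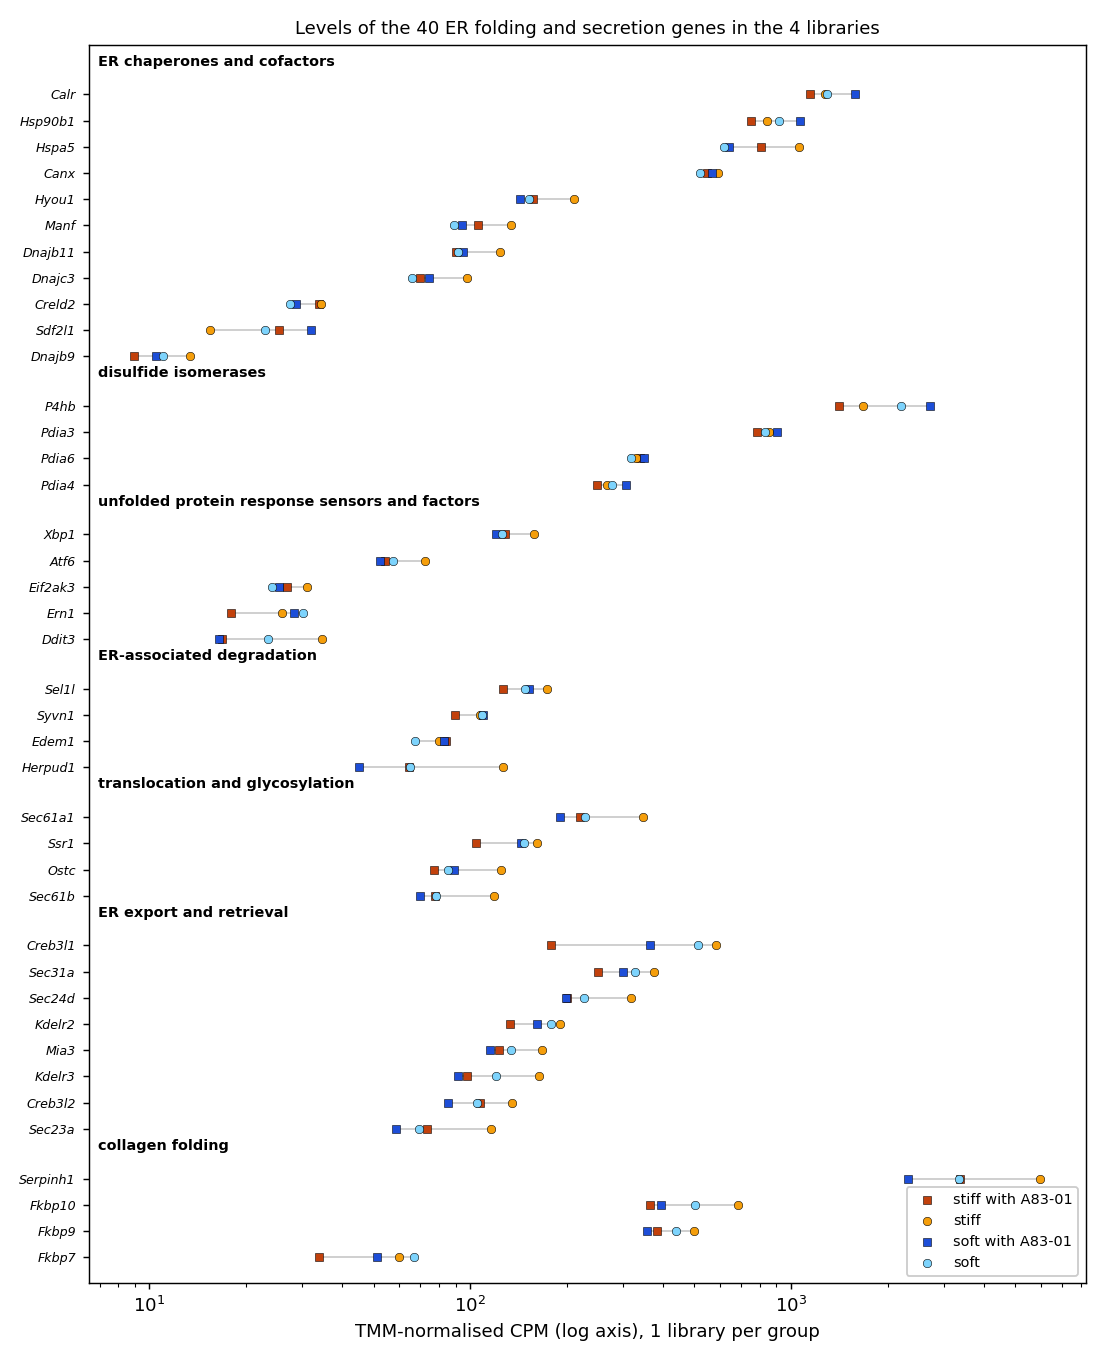
TMM-normalised CPM on a log axis of the 40 genes, grouped by role, with 1 point per library (squares with A83-01, circles without; orange shades stiff, blue shades soft) and a grey line joining the lowest to the highest. For 29 of 40 genes the stiff library without A83-01 is the rightmost point.

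On stiff matrix, most of the 40 genes were lower with A83-01 than without it. The translocation, export and collagen folding roles had lower medians than the chaperones. Of the 40, 37 had a ratio below 1 (28 of 40 under total-count scaling), with a median log2 ratio of -0.44 against 0.02 for all genes compared. Of all 13634 genes compared, 6482 lay below 0 with TMM and 3085 under total-count scaling. The sign counts given for this comparison stand beside these. A ratio of at least 1.5-fold with a 95% counting interval excluding equality was reached by 13 genes on the lower side, where the share of all genes was 9.98%, and by 1 gene on the higher side, where it was 15.0%. At 2-fold, 2 genes were lower, beside 4.47% of all genes, and 0 were higher, beside 7.80%. Under total-count scaling 4 genes were 1.5-fold lower and 1 higher, beside 728 lower and 3590 higher of all 13634 genes.

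The lowest ratio was that of Creb3l1 (OASIS), an ER membrane transcription factor that in mouse bone is known to drive secretory and type I collagen genes. Creb3l1 had 178 CPM on stiff with A83-01, 585 on stiff, 364 on soft with A83-01 and 511 on soft. With A83-01 it was 3.29-fold lower on stiff (95% counting interval 3.20 to 3.39) and 1.40-fold lower on soft (1.37 to 1.43). Both libraries with A83-01 lay below both without it. Its paralogue Creb3l2, which in mouse cartilage is known to drive Sec23a, was 1.26-fold lower on stiff (1.20 to 1.32) and 1.24-fold lower on soft (1.18 to 1.30). The FPKM ratio of Creb3l1 to Creb3l2 was 2.15 on stiff with A83-01, 5.60 on stiff, 5.53 on soft with A83-01 and 6.27 on soft.

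All 8 genes of the export and retrieval role were lower with A83-01 on stiff, by a median of -0.62 log2, and 4 were past 1.5-fold. The role counts the transcription factors Creb3l1 and Creb3l2 beside the transport genes, and Creb3l1 is 1 of the 4. Under total-count scaling all 8 were still lower, by a median of -0.34 log2, and 1, Creb3l1, was past 1.5-fold. Sec23a, an inner coat subunit of the COPII vesicles that leave the ER, had 73.1 CPM on stiff with A83-01, 116 on stiff, 58.9 on soft with A83-01 and 69.5 on soft, and was 1.59-fold lower with A83-01 on stiff (1.51 to 1.68). Sec24d, the cargo adaptor of that coat, had 200, 316, 199 and 227 CPM in the same order, and was 1.58-fold lower (1.53 to 1.63). Kdelr3, a receptor that returns escaped chaperones from the Golgi, had 97.7, 164, 91.5 and 120 CPM, and was 1.68-fold lower (1.61 to 1.75). In each of these 3 genes the stiff library without A83-01 stood above the other three. The outer coat subunit Sec31a lay just under the threshold, at -0.58 log2 (-0.62 to -0.54), and Kdelr2 and Mia3 (TANGO1, which loads procollagen into COPII carriers) were 1.42-fold (1.37 to 1.48) and 1.36-fold lower (1.30 to 1.41).

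The 4 translocation and glycosylation genes were all past 1.5-fold lower with A83-01 on stiff, within a narrow range of -0.69 to -0.62 log2, and 0 of the 4 passed it under total-count scaling, where all 4 were still lower. Sec61a1, the pore of the channel, had 220 CPM on stiff with A83-01, 346 on stiff, 191 on soft with A83-01 and 228 on soft, a 1.57-fold lower level with A83-01 on stiff (1.52 to 1.62). Sec61b, a small subunit of the same channel, had 77.6, 119, 69.7 and 78.5 CPM and was 1.53-fold lower (1.46 to 1.61). Ssr1, a subunit of the translocon-associated complex, had 104, 161, 144 and 147 CPM and was 1.54-fold lower (1.48 to 1.61). Ostc, a subunit that couples the oligosaccharyltransferase to the channel, had 77.0, 125, 89.3 and 85.0 CPM and was 1.62-fold lower (1.54 to 1.70). For Ssr1 the stiff library without A83-01 was close to both soft libraries and only stiff with A83-01 stood apart, whereas for the other 3 the stiff library without A83-01 stood above the rest.

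The collagen folding genes had the lowest median of the 7 roles on stiff, -0.83 log2, and 3 of 4 were past 1.5-fold lower with A83-01. Under total-count scaling the median was -0.54 log2 and 1 of 4 was past 1.5-fold. Serpinh1 (HSP47), which holds the procollagen triple helix, had 3351 CPM on stiff with A83-01, 5975 on stiff, 2312 on soft with A83-01 and 3326 on soft. It was 1.78-fold lower with A83-01 on stiff (1.77 to 1.80) and 1.44-fold lower on soft (1.43 to 1.45). Fkbp10 (FKBP65), a prolyl isomerase for procollagen, had 364, 685, 394 and 502 CPM in the same order and was 1.88-fold lower with A83-01 on stiff (1.84 to 1.92). Fkbp7, another ER prolyl isomerase, had 33.8, 59.8, 51.2 and 66.9 CPM and was 1.77-fold lower (1.64 to 1.91). Fkbp9, of the same family, was 1.30-fold lower (1.27 to 1.33). All 4 were lower with A83-01 on both matrices. Beside them, the 6 fibroblast markers read split evenly on stiff, with 3 above and 3 below 0 with A83-01 and a median of -0.01 log2, and on soft 2 lay above and 4 below, with a median of -0.07. Their sum was lower with A83-01 on both matrices, with Col1a1 at -1.86 log2 on stiff and -1.16 on soft. The other 5 (a split made after the values were seen) summed to 6251 CPM on stiff with A83-01, 2519 on stiff, 24148 on soft with A83-01 and 13883 on soft, most of it Dcn. Of these 5, Pdgfra, Dcn and Dpt lay above 0 with A83-01 on stiff and Dcn and Dpt on soft.

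Among the sensors and factors, Ddit3 (CHOP), the transcription factor known for late and lethal ER stress and also induced through ATF4, had 16.8 CPM on stiff with A83-01, 34.6 on stiff, 16.5 on soft with A83-01 and 23.4 on soft. It was 2.05-fold lower with A83-01 on stiff (1.86 to 2.28) and 1.42-fold lower on soft (1.27 to 1.58). Xbp1 differed less, at 128, 158, 120 and 126 CPM, 1.24-fold lower on stiff with A83-01 (1.19 to 1.29). Ern1 had 18.0, 25.9, 28.3 and 30.2 CPM and was 1.43-fold lower on stiff (1.29 to 1.60). Atf6 was 1.33-fold lower (1.25 to 1.41), and Eif2ak3 was 1.16-fold lower (1.06 to 1.28) with TMM but at 0.07 log2 under total-count scaling.

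In ER-associated degradation, Herpud1, a membrane scaffold of the retrotranslocation complex, had a lower ratio than the other 3 genes of its role. Herpud1 had 64.6 CPM on stiff with A83-01, 127 on stiff, 44.9 on soft with A83-01 and 64.9 on soft, 1.96-fold lower with A83-01 on stiff (1.86 to 2.07) and 1.44-fold lower on soft (1.35 to 1.54). Sel1l and Syvn1 (HRD1), adaptor and ubiquitin ligase of that complex, were 1.36-fold (1.31 to 1.42) and 1.20-fold lower on stiff (1.14 to 1.26), with Syvn1 at 0.02 log2 under total-count scaling. Edem1, which delivers misfolded glycoproteins to degradation, was 1.06-fold higher on stiff (1.00 to 1.12) and 1.23-fold higher on soft (1.16 to 1.30).

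Chaperones and disulfide isomerases differed least by A83-01 on stiff, with medians of -0.33 and -0.12 log2 and 0 of 15 past 1.5-fold lower. For the 4 disulfide isomerases the direction depends on the scaling: 3 of 4 were below 0 with TMM and 4 of 4 above 0 with total counts. Hspa5 (BiP) had 804 CPM on stiff with A83-01, 1059 on stiff, 642 on soft with A83-01 and 619 on soft, 1.32-fold lower with A83-01 on stiff (1.30 to 1.34). The 1 gene past 1.5-fold higher was Sdf2l1, a cofactor of BiP and its J-protein Dnajb11, with 25.4, 15.5, 31.8 and 22.9 CPM and a 1.63-fold higher level on stiff with A83-01 (1.46 to 1.84). It was also 1.39-fold higher with A83-01 on soft (1.27 to 1.53), and both libraries with A83-01 were above both without it. Of the J-proteins, Dnajb9 lay just under the threshold on stiff, at -0.58 log2 (-0.80 to -0.37), Dnajc3 was 1.40-fold lower (1.33 to 1.48) and Dnajb11 1.37-fold lower (1.31 to 1.44). Hyou1, a nucleotide exchange factor of BiP, was 1.35-fold lower (1.30 to 1.40), and Manf was 1.26-fold lower (1.20 to 1.32). Canx (calnexin) was 1.09-fold lower (1.06 to 1.11) with TMM. Under total-count scaling Canx was higher, at 582 CPM on stiff with A83-01 and 520 on stiff. Creld2 was at a ratio of 0.984 (0.904 to 1.07) and the isomerase Pdia6 at 1.03 (1.00 to 1.06). Of the 11 chaperones and cofactors, 10 lay below 0 with TMM and 6 under total-count scaling.

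On soft matrix, the ratios with A83-01 were smaller and also split by role. None of the 40 was past 1.5-fold in either direction, where 5.63% of all genes were higher and 5.96% lower, or past 2-fold, where 2.18% were higher and 2.44% lower, and 18 ratios lay above 1 and 22 below. The 4 disulfide isomerases and 9 of the 11 chaperones were above 0, with medians of 0.14 and 0.08 log2, and all 8 export and retrieval genes and all 4 collagen folding genes were below 0, with medians of -0.23 and -0.37. P4hb and Calr were both 1.23-fold higher with A83-01 on soft (1.22 to 1.24 and 1.21 to 1.25), and Hsp90b1 was 1.16-fold higher (1.14 to 1.17). On stiff the same 3 were lower with A83-01, at log2 ratios of -0.24 for P4hb (-0.26 to -0.22), -0.15 for Calr (-0.17 to -0.13) and -0.16 for Hsp90b1 (-0.19 to -0.14) with TMM, and above 0 under total-count scaling.

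With TMM, the A83-01 ratio on stiff was below that on soft for 39 of the 40 genes, beside 6506 of all 13634 genes compared. The exception among the 40 was Sdf2l1. The median difference was -0.41 log2 against 0.02 for all genes compared. The difference was past 1.5-fold, with a counting interval excluding equality, for 4 genes, beside 7.36% of all genes on that side. It was 2.35-fold for Creb3l1, 1.70-fold for Ostc, 1.58-fold for Dnajc3, and -0.59 log2 (-0.67 to -0.50) for Ssr1. Past 2-fold on that side lay 1 gene, beside 3.07% of all genes, and 0 on the other, beside 5.89%. With 1 library per group this difference has no replicate test, and total-count scaling raises the ratio on stiff by 0.284 log2 and that on soft by 0.0105. This moves every difference upward, toward 0 or past it for the 39 genes. The counts above are those with TMM and were not taken under total-count scaling. Under that scaling the median ratio of the 40 was -0.16 log2 on stiff and -0.06 on soft.

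**Figure D2:**
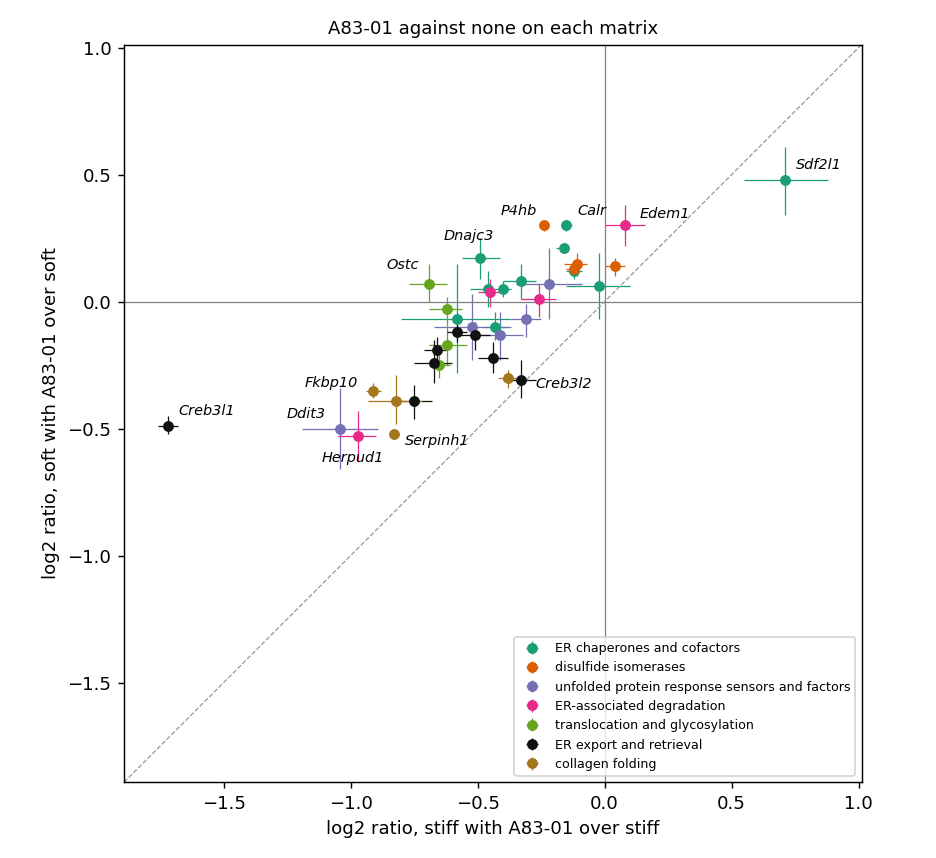
Log2 ratio of TMM-normalised CPM with A83-01 against none on stiff (horizontal) and soft matrix (vertical) for the 40 genes, coloured by role, with 95% counting intervals as bars and equality dashed. All but Sdf2l1 lie above the dashed line, Creb3l1 farthest to the left at -1.72.

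Without A83-01, most of the genes were higher on stiff than on soft matrix. Of the 40, 32 had a ratio above 1 (23 under total-count scaling), with a median log2 ratio of 0.32 against 0.00 for all genes. Of all 13634 genes compared, 6824 lay above 0 with TMM and 4001 under total-count scaling. Past 1.5-fold were 7 genes on the higher side, beside 10.9% of all genes, and 0 on the lower side, beside 15.6%; none was past 2-fold, where 5.33% and 8.58% of all genes were. Under total-count scaling 2 genes were 1.5-fold higher and 2 lower, beside 941 and 3298 of all 13634 genes. This comparison and the one of A83-01 on stiff share the stiff library without A83-01, so a high value there raises one ratio and lowers the other.

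Herpud1 was the highest of the 40, 1.95-fold higher on stiff than on soft (1.85 to 2.06), followed by Serpinh1 at 1.80-fold (1.78 to 1.81), Hspa5 at 1.71-fold (1.68 to 1.74) and Sec23a at 1.67-fold (1.59 to 1.77). Sec61a1 was 1.52-fold higher (1.47 to 1.56), Sec61b was 1.51-fold higher (1.44 to 1.59) and Manf, a small protein released from the ER under stress, was at a log2 ratio of 0.59 (0.52 to 0.66), just past the threshold. Manf had 106 CPM on stiff with A83-01, 134 on stiff, 94.3 on soft with A83-01 and 89.1 on soft. Just under the threshold were Ddit3 at 1.48-fold (1.35 to 1.63), Dnajc3 at 1.48-fold (1.40 to 1.56) and Ostc at 1.47-fold (1.40 to 1.54). All 8 genes of the export and retrieval role, Creb3l1 and Creb3l2 included, lay above 0 with TMM and 5 of 8 under total-count scaling.

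Of the 11 ER chaperones and cofactors, 8 lay above 0 on stiff against soft without A83-01, with a median of 0.32 log2, and 7 under total-count scaling, with a median of 0.09. Hspa5 was higher on stiff, while its Hsp90-family counterpart Hsp90b1 (GRP94) had 752 CPM on stiff with A83-01, 841 on stiff, 1063 on soft with A83-01 and 919 on soft, 1.09-fold lower on stiff than on soft (1.07 to 1.11). Hspa5 counts were 107% of Hsp90b1 counts on stiff with A83-01 and 126% on stiff, against 60.3% on soft with A83-01 and 67.3% on soft. This ratio within a library does not depend on scaling. Calr had 1149, 1277, 1586 and 1290 CPM in the same order of libraries and was at a ratio of 0.990 between stiff and soft (0.977 to 1.00). P4hb had 1412, 1670, 2714 and 2207 CPM and was 1.32-fold lower on stiff (1.31 to 1.34), and Sdf2l1 was 1.47-fold lower (1.31 to 1.66). Hsp90b1, Calr, P4hb and the isomerases Pdia3 and Pdia4 all had their highest level on soft with A83-01 and their lowest on stiff with A83-01, whereas under total-count scaling the lowest of all 5 was stiff without A83-01.

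With A83-01 in both cultures, the 40 genes were spread about equality, with 19 ratios above 1 and 21 below and a median of -0.05 log2. Past 1.5-fold were 4 genes on the lower side, beside 13.1% of all genes, and 0 on the higher side, beside 13.5%; past 2-fold was 1 gene on the lower side, Creb3l1, beside 6.72% of all genes, and 0 on the higher side, beside 6.88%. Creb3l1 was 2.05-fold lower on stiff with A83-01 than on soft with A83-01 (1.99 to 2.11), P4hb 1.92-fold lower (1.90 to 1.94), Ern1 1.57-fold lower (1.42 to 1.74) and Fkbp7 1.52-fold lower (1.41 to 1.63). The highest were Serpinh1 at 1.45-fold (1.44 to 1.46) and Herpud1 at 1.44-fold (1.35 to 1.54), the 2 genes that were also highest without A83-01. Hspa5 was 1.25-fold higher (1.23 to 1.28). P4hb, Ern1, Fkbp7, Sdf2l1 and Hsp90b1 were among the 8 genes lower on stiff in both comparisons, with 0.520-fold for P4hb with A83-01 and 0.757-fold without it.

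**Figure D3:**
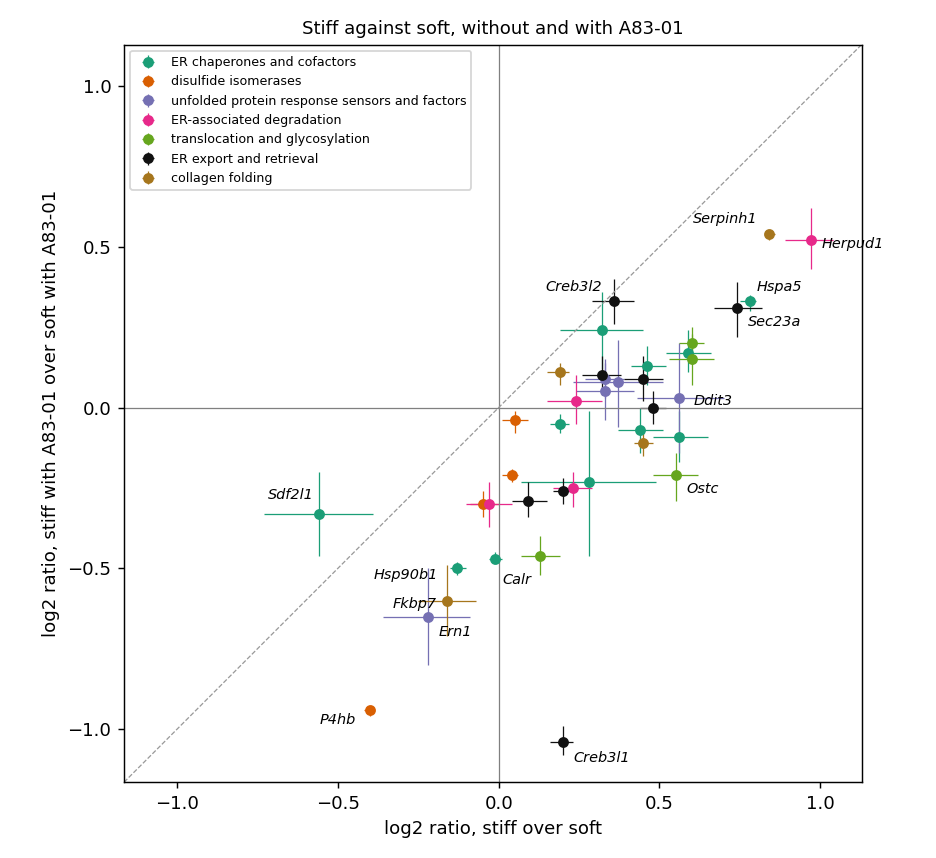
Log2 ratio of TMM-normalised CPM on stiff against soft matrix, without A83-01 (horizontal) and with A83-01 in both cultures (vertical), for the 40 genes, coloured by role, with 95% counting intervals as bars and equality dashed. Herpud1 and Serpinh1 are high in both comparisons and P4hb is low in both, while Creb3l1 is above 0 without A83-01 and at -1.04 with it.

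**Figure D4:**
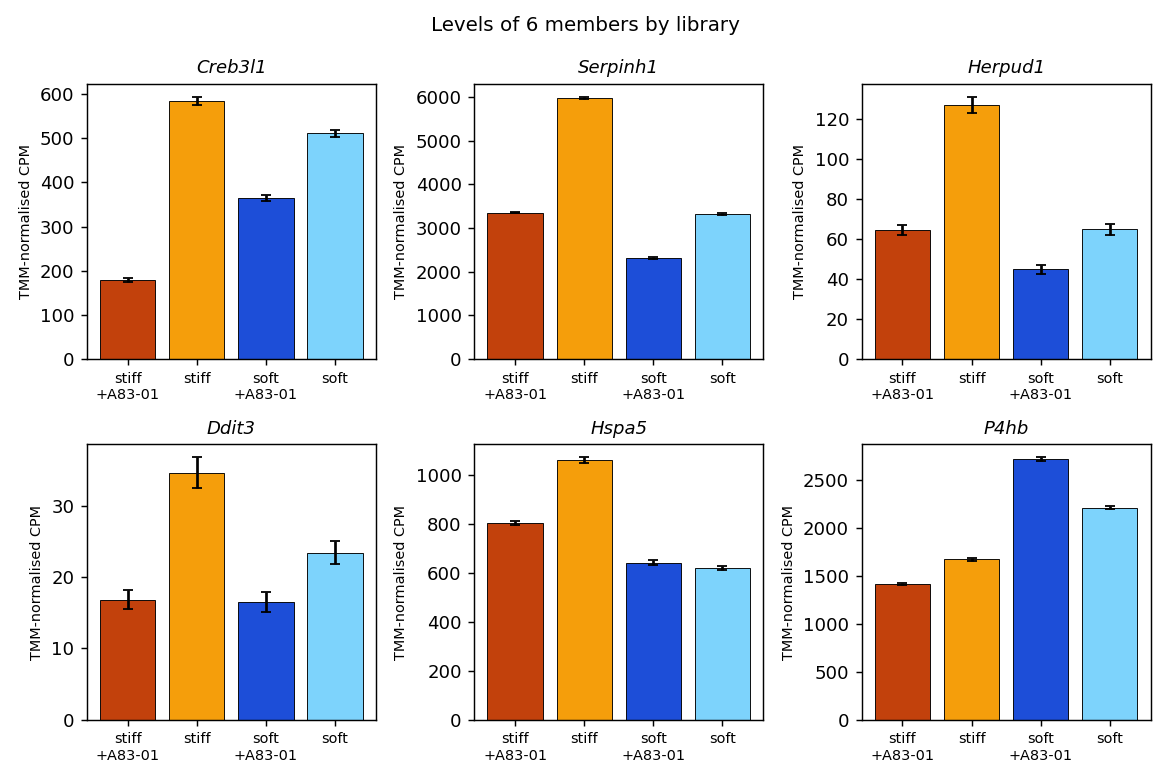
TMM-normalised CPM of 6 of the 40 genes in the 4 libraries, with bars of 95% counting error by the normal approximation and no replicate error. Creb3l1 and Ddit3 are low in both libraries with A83-01, Serpinh1 and Herpud1 are highest on stiff, and Hspa5 and P4hb run in opposite directions between stiff and soft.

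A test over libraries was possible only in an additive model of stiffness and A83-01 over all 4 (edgeR quasi-likelihood, 1 residual degree of freedom), where the residual is the difference between the A83-01 responses on the 2 matrices. At an adjusted p of 0.05 it called 0 of the 40 for stiffness, beside 2.35% of all genes higher and 3.29% lower, and 0 of the 40 for A83-01, beside 0% higher and 0.0440% lower. At an unadjusted p of 0.05, 4 of the 40 were higher and 2 lower on stiff (12.1% and 13.2% of all genes), and 1 was higher and 7 lower with A83-01 (7.25% and 6.04%). The nearest to the threshold was Herpud1, with a stiffness effect of 0.75 log2 (SE 0.158, edgeR adjusted p = 0.0699) and an A83-01 effect of -0.75 (SE 0.158, edgeR adjusted p = 0.199). Creb3l1 had an A83-01 effect of -1.10 (SE 0.335, edgeR adjusted p = 0.293). DESeq2 called 3 of the 40 for stiffness, with Herpud1 and Serpinh1 higher and P4hb lower (4.21% of all genes higher and 5.41% lower), and 2 for A83-01, Creb3l1 and Serpinh1, both lower (1.61% higher and 1.79% lower). In DESeq2, Herpud1 had a stiffness effect of 0.75 (SE 0.243, adjusted p = 0.0255), Serpinh1 0.69 (SE 0.211, adjusted p = 0.0144) and P4hb -0.67 (SE 0.229, adjusted p = 0.0388). Its A83-01 effect was -1.11 for Creb3l1 (SE 0.302, adjusted p = 0.0105) and -0.69 for Serpinh1 (SE 0.211, adjusted p = 0.0363). limma-voom called 0 of the 40 for either factor.

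The 10 genes with ERSE or ERSE-II in the window were compared with the 21 whose window held neither. On stiff with A83-01 against stiff, all 10 lay below 0, with a median of -0.35 log2 and a range of -0.97 to -0.02, while the 21 had a median of -0.58 and a range of -1.72 to 0.71. Under total-count scaling 6 of the 10 lay below 0, with medians of -0.07 for the 10 and -0.30 for the 21. Between stiff and soft without A83-01, 8 of the 10 lay above 0, with a median of 0.39 and a range of -0.13 to 0.97, and the 21 had a median of 0.24 and a range of -0.56 to 0.84. Under total-count scaling 7 of the 10 lay above 0. With A83-01 on soft, 7 of the 10 lay above 0, with medians of 0.06 for the 10 and -0.12 for the 21, and between stiff and soft with A83-01 in both, 5 of the 10 lay above 0, with medians of 0.02 and -0.21. The ranges overlapped in all 4 comparisons.

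Other genes of the secretory pathway were set beside the 40. The genes listed as targets of PERK and ATF4 were mostly lower with A83-01 on stiff. The activity of PERK (Eif2ak3) was not measured. Of 12 compared, 10 were past 1.5-fold lower with A83-01 on stiff and 8 past 2-fold, with a median of -1.52 log2; 8 of 12 were 1.5-fold lower under total-count scaling. On soft 4 were past 1.5-fold lower and 1 higher, with a median of -0.18. Between stiff and soft without A83-01, 6 were past 1.5-fold higher (3 under total-count scaling), with a median of 0.52. With A83-01 in both cultures the list lay the other way, with 10 of 12 below 0 and a median of -0.28. There 3 were past 1.5-fold lower and 1 higher. Nupr1, a stress-induced chromatin protein, rose on stiff by 2.11 log2 in the additive model (SE 0.375, edgeR adjusted p = 0.0495), and was the 1 of the 12 called for stiffness, with 0 called for A83-01. Nupr1 had 36.5 CPM on stiff with A83-01, 111 on stiff, 14.1 on soft with A83-01 and 15.6 on soft.

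The enzymes that hydroxylate and glycosylate collagen in the ER were also lower with A83-01 on stiff. Of 13 compared, 9 were past 1.5-fold lower with A83-01 on stiff and 4 past 2-fold, with a median of -0.70 log2. Under total-count scaling 4 were past 1.5-fold lower and 10 of 13 below 0, with a median of -0.42. On soft 2 were past 1.5-fold lower, and 0 were called in the additive model for either factor. The catalytic partners of P4hb in prolyl 4-hydroxylase, named after their values were seen, were lower still than P4hb: P4ha1 was 2.35-fold (2.27 to 2.42), P4ha2 2.81-fold (2.71 to 2.92) and P4ha3 4.96-fold lower with A83-01 on stiff (4.62 to 5.35), beside 1.18-fold for P4hb.

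Ratios were wider for the collagen cargo than for the genes that fold it. Col1a1 had 19079 CPM on stiff with A83-01, 69475 on stiff, 17577 on soft with A83-01 and 39252 on soft, 3.64-fold lower with A83-01 on stiff (3.63 to 3.65). Col3a1 had 16688, 52984, 7047 and 15996 CPM, 3.17-fold lower (3.17 to 3.18). All 6 fibrillar collagen genes compared were past 1.5-fold lower with A83-01 on both matrices and past 1.5-fold higher on stiff than on soft. Col11a1 was called in the additive model for both factors. It rose by 3.38 log2 on stiff (SE 0.190, edgeR adjusted p = 0.00680) while it fell by 4.51 log2 with A83-01 (SE 0.196, edgeR adjusted p = 0.0327). Serpinh1 counts were 17.6% of Col1a1 counts on stiff with A83-01 and 8.60% on stiff, against 13.2% on soft with A83-01 and 8.47% on soft, so the chaperone was higher relative to its cargo in both libraries with A83-01.

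With A83-01 on stiff, the remaining lists lay nearer to all genes than the lists above. The median of 11 COPI and retrieval genes was -0.47 log2, with 10 of 11 below 0, beside -0.44 for the 40 genes. It was -0.29 for 10 oligosaccharyltransferase subunits, and -0.21 for each of 15 other translocon and signal peptidase genes, 14 other degradation genes and 15 other COPII genes. The 13 other ER oxidoreductases had a median of -0.11. The same list held the 1 gene of these called for stiffness, Ero1a, the oxidase that recharges disulfide isomerases, which fell by 1.45 log2 on stiff (SE 0.247, edgeR adjusted p = 0.0450) and had 37.5 CPM on stiff with A83-01, 55.3 on stiff, 141 on soft with A83-01 and 111 on soft. Outside the ER, 13 cytosolic chaperones had a median of -0.23 and 8 mitochondrial chaperones and proteases of -0.26. In these lists 0 to 2 genes each were past 1.5-fold lower with A83-01 on stiff. Under total-count scaling the medians were -0.19 for the COPI genes and 0.00 for the oligosaccharyltransferase subunits, and those of the other lists of this paragraph lay above 0, between 0.02 and 0.17.

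**Figure D5:**
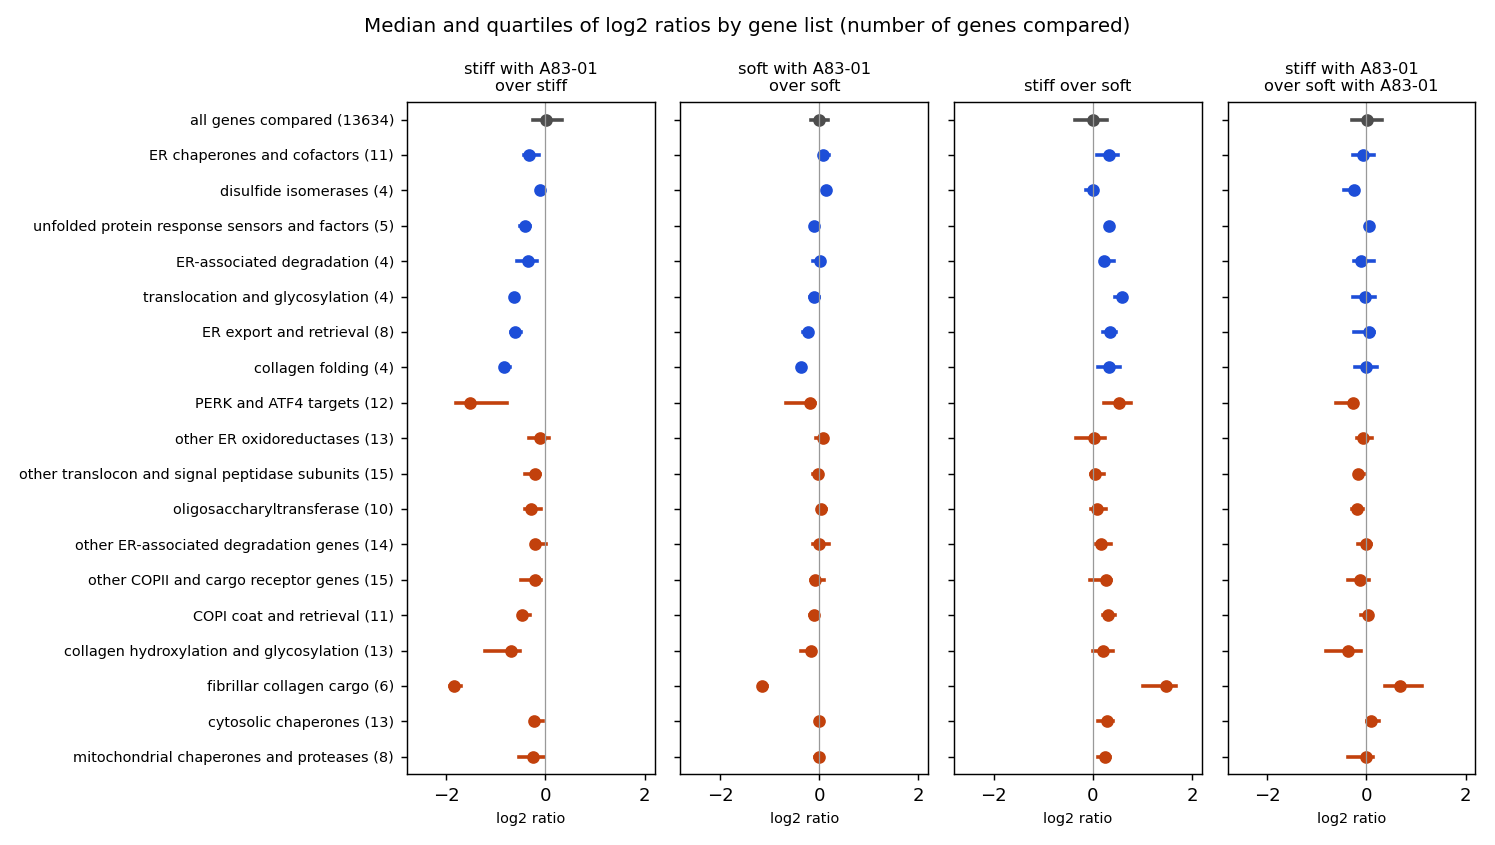
Median (dot) and quartiles (bar) of the log2 ratios of each gene list in the 4 comparisons, with the number of genes compared beside its name; grey is all genes compared, blue the roles of the 40 genes, orange the other lists. Fibrillar collagens (-1.84) and PERK and ATF4 targets (-1.52) lie farthest left in the comparison of stiff with A83-01 over stiff.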

How the data were processed

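Poly(A) RNA of 4 cultures of rat microvessels, 1 library per group, was sequenced as paired reads. The authors deposited 1 table of raw counts per gene and 1 of FPKM (fragments scaled to transcript length and library size). Per the submitters' processing notes, HISAT2 and edgeR were used with build Rnor_6.0; which program counted, the annotation, the strand setting and versions were not stated there. The implied length was constant within 5% across libraries for 39 of the 40 genes, Mia3 excepted.

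From the counts as deposited, log2 ratios of TMM CPM (prior count 2) were computed in edgeR 4.0.16 (R 4.3.3) for genes with at least 1 CPM in at least 1 library, with 95% Clopper-Pearson intervals of the ratio of counts. These cover counting error only, reads not being independent molecules. The additive model used the quasi-likelihood F test of edgeR, adjusted over 13634 genes (Benjamini-Hochberg), with DESeq2 1.42.0 and limma 3.58.1 (voom) as alternatives. The model was also run on simulated counts, and that run does not show how it performs on the 4 libraries. The residual of the additive model is the difference between the A83-01 responses on the 2 matrices. Its p-values therefore measure no spread between replicate libraries or animals, and nothing says the 4 libraries came from separate animals.

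Values in all 4 libraries were to be given for genes past 1.5-fold in any pair, called in the model, or most abundant in their role (20 genes); others are named by range or after their values were seen. The genes and lists were chosen with earlier results of these data known. Srprb, Sar1a, Copg1, Crtap, Cth, Col1a2, Robo4, Itgam and Myh1 were not analysed here.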

Additional observations from a re-analysis of the deposited data

Results flagged for a closer look

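With A83-01, 4 genes differed by at least 1.1-fold in opposite directions on the 2 matrices, each with counting intervals that exclude equality. Each group was 1 library, so none of these differences was tested, and the 1.1-fold limit was set after the data were seen. All were lower with A83-01 on stiff and higher on soft. The ratio on stiff minus that on soft was -0.37 log2 for Hsp90b1, -0.45 for Calr, -0.66 for Dnajc3 and -0.54 for P4hb. Under total-count scaling the ratio on stiff was above 0 for Hsp90b1, Calr and P4hb and at -0.20 log2 for Dnajc3.

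Between stiff and soft, without A83-01, 5 genes stood higher on stiff by 1.1-fold or more, and lower on stiff by as much with A83-01 in both cultures, again untested. The difference with A83-01 minus that without it was -0.52 log2 for Dnajb9, -0.48 for Sel1l, -0.77 for Ostc, -0.46 for Sec31a and -1.23 for Creb3l1. Under total-count scaling the difference without A83-01 was below 0 for Sel1l (-0.01), Sec31a (-0.03) and Creb3l1 (-0.04).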

How the results depend on the processing

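No result called in the main setting reversed its direction. Total-count scaling could not reverse a ratio past 1.5-fold, since it shifted ratios by at most 0.284 log2. Ratios short of 1.5-fold did change sign, among them P4hb, Calr and Hsp90b1 with A83-01 on stiff. Under total-count scaling and with the deposited FPKM, stiff against soft had 2 of the 40 genes 1.5-fold higher and 2 lower in both, with medians of 0.09 and 0.07 log2. With A83-01 on stiff, both gave 4 genes 1.5-fold lower, 1 past 2-fold lower and 12 above 0, with medians of -0.16 and -0.15, and FPKM put 1 gene past 2-fold higher. With A83-01 in both cultures, both gave 0 genes past 2-fold lower, and FPKM gave 1 gene 1.5-fold higher and 2 lower. Over all genes, total counts gave 941 higher and 3298 lower at 1.5-fold for stiff against soft, and 3590 higher and 728 lower for A83-01 on stiff. DESeq2 size factors and upper-quartile scaling kept every count of the 40 genes within 1.5 times. In these settings the median ratio of the 40 less that of all genes was 0.32 for stiff against soft with either TMM or total counts, and for A83-01 on stiff -0.47 with TMM and -0.46 with total counts.

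In the additive model, stiffness had 2 of the 40 higher and 1 lower under total counts (623 and 1135 of all genes), the same numbers with DESeq2 (574 and 737), and 13 and 17 of all genes where A83-01 was left out of the model. For A83-01, total counts called 1 of the 40 lower (565 of all genes higher, 270 lower) and DESeq2 2 lower (219 and 244). Over all genes lower with A83-01, 0 were called with DESeq2 size factors, upper-quartile scaling, stiffness left out, or TMM without the 10 most abundant genes of each library (chosen after seeing the data), 3 with limma-voom and 2 with a minimum of 1 CPM in all 4 libraries, while no minimum gave 10 higher and 17 lower. The cause was not tested.

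No paired analysis was possible because each group is 1 library. Leaving out a replicate was not possible for the same reason, and dropping 1 library leaves the additive model no residual degrees of freedom. Depth does not limit these genes, whose lowest count was 319; the lack of replicates does.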

Other observations

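Some genes outside the 40, named here after their values were seen, had wider ratios than any of them. Plod2, the lysyl hydroxylase of collagen telopeptides, had 12.8 CPM on stiff with A83-01, 178 on stiff, 21.5 on soft with A83-01 and 113 on soft, and was 13.8-fold lower with A83-01 on stiff (95% counting interval 12.6 to 15.3) and 5.21-fold lower on soft. Plod1, which hydroxylates lysines of the helix, was 1.42-fold lower on stiff (1.39 to 1.46). Trib3, a pseudokinase induced by ATF4 and CHOP, had 9.65 CPM on stiff with A83-01, 104 on stiff, 10.8 on soft with A83-01 and 28.8 on soft, and was 10.7-fold lower with A83-01 on stiff (9.61 to 12.0). Asns, Chac1 and Ddit4 of the same list were 3.54-fold (3.37 to 3.73), 3.47-fold (3.13 to 3.88) and 4.58-fold lower (4.36 to 4.81). None of these passed the additive model for A83-01 with edgeR, where Plod2 had -3.08 log2 (SE 0.372, adjusted p = 0.108) and Trib3 -2.42 (SE 0.515, adjusted p = 0.201). Ppib, the cyclophilin of the collagen prolyl 3-hydroxylation complex, differed least of its list with A83-01 on stiff, with 335 CPM on stiff with A83-01, 339 on stiff, 361 on soft with A83-01 and 345 on soft.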
